A study of Mus musculus with 2 samples.

Results

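The genes examined were 45 protein-coding genes that control the survival and the cell cycle of thymocytes, 21 of them in cell survival and death and 24 in cell division. They were chosen by name, all 45 were found in the GENCODE annotation of the mouse genome build NCBIM37 (mm9), and they were set against the 22327 other protein-coding genes of that annotation, 22372 in all. Runx1 binding had been mapped by ChIP-seq in thymocytes at the CD4+CD8+ (double-positive, DP) stage, sorted from the thymus of C57BL/6 mice. A Runx1 ChIP library was made from 10000000 cells with 10 μg of antibody, an input library of the same cells was made without antibody, and each condition had 1 library, so that no spread between replicates exists. The labels give no genetic modification or number of mice, the study's methods put its mice at a few weeks of age, and the antibody's catalogue number differs between the labels and the study's methods. The deposited lists held 3531 Runx1 peaks and 740 input peaks, each with a position and a score that the files do not explain. The score was used here only to rank peaks. Expression of DP thymocyte markers could not be checked in peak lists, but 4 of 7 marker genes found in the annotation (Cd3e, Cd4, Cd8a and Rag1) had a Runx1 peak within 5 kb of their transcription start site (TSS), and none of 8 B cell, myeloid and erythroid markers did. At the share of 4.51% found over the protein-coding genes outside the 45, so few markers say nothing about the other cell types.

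Runx1 is the DNA-binding part of a factor that pairs with Cbfb and is needed at several steps of T-cell development. Immature thymocytes divide rapidly once the pre-T-cell receptor signals, then become small resting DP cells, most of which die unless their receptor signals. D-type cyclins with Cdk4 and Cdk6 start the division by inactivating the RB proteins and freeing E2F factors, while Bcl2l1 and Mcl1 keep cells alive against the BH3-only proteins and the pore-forming Bax and Bak1.

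The sequences of 8 Runx1 peaks that lie within 5 kb of the TSS or in the body of one of these genes are given on the plus strand of NCBIM37. They are among the 11 of 13 such peaks that hold the 6 bases RUNX factors recognise, in either form; capitals mark TGTGGT or its variant TGCGGT, or either one read on the minus strand (ACCACA or ACCGCA).
Ccnd3 intron, score 73, chr17:47644984-47645170: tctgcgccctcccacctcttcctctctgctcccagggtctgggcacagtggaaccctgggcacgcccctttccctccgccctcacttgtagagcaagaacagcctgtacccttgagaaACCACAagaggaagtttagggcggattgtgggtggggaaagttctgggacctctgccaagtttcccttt
Ccnd3 intron, score 49, chr17:47679108-47679294: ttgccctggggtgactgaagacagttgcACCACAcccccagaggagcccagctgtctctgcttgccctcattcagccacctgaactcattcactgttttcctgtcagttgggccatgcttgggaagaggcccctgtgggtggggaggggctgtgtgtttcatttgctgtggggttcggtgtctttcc
Ccnt2 promoter, score 30, chr1:129670432-129670618: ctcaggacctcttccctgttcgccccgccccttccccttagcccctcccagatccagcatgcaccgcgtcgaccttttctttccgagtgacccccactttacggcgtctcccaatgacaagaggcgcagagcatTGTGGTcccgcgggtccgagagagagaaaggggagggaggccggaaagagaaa
Cdk4 promoter, score 18, chr10:126500340-126500526: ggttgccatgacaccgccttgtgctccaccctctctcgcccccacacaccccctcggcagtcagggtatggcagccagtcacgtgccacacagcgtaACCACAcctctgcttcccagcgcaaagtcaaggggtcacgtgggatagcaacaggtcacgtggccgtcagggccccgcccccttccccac
Myc upstream region, score 18, chr15:61814958-61815144: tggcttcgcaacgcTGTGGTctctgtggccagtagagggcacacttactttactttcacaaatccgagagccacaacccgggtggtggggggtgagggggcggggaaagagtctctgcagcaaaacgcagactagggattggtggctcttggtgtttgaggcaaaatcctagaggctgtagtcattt
Mycn promoter, score 18, chr12:12949119-12949305: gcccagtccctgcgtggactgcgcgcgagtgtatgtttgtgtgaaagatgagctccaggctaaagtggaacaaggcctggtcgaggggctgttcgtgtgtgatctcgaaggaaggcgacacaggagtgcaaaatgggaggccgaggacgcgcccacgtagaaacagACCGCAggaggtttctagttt
Bcl2l1 intron, score 21, chr2:152601198-152601384: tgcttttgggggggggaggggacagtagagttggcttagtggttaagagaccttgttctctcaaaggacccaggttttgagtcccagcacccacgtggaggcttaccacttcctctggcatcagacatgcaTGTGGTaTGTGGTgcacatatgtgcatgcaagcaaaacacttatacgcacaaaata
Bcl2l11 intron, score 16, chr2:127978570-127978756: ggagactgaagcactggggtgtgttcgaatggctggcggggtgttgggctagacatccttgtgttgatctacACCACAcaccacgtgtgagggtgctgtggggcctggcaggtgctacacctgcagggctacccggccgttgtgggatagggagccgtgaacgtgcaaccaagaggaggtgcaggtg
The Bcl2l1 peak held a pair of matches, while the Mycn peak held the TGCGGT form alone. The 5 other peaks at these genes are described without their sequence.

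A Runx1 peak centre lay within 5 kb of the TSS for 5 of the 45 genes, or 11.1% (exact Clopper-Pearson 95% confidence interval 3.71 to 24.1%), as compared with 4.51% of the other protein-coding genes. Those 5 genes were Ccnd3, Ccnt2, Cdk4, Myc and Mycn. Inside the gene body, a peak was found for 4 genes (Ccnd3, E2f2, Bcl2l1 and Bcl2l11), or 8.89% (2.48 to 21.2%), against 6.48% of the others. Within 50 kb of the body, 18 genes had a peak, or 40.0% (25.7 to 55.7%), against 25.8% of the others. The intervals cover counting over genes only. As the genes were picked by name with earlier results of these data known, no test was run. All 5 genes with a peak near the TSS belonged to the cell cycle group (5 of 24, 20.8%). In that group Ccnt2, a cyclin of transcription, and the 2 MYC factors are counted, while the 2 FOXO factors are counted with survival and death. None of the 21 survival and death genes had a peak near the TSS. That count of 0 allows a share of up to 14.3% when the limit is set at 3 counts (the exact interval reaches 16.1%). In the gene body the groups had 2 genes each, and within 50 kb they had 10 of 24 and 8 of 21. Among 113 further genes of these pathways, described below, peaks near the TSS were found on both sides. No input peak lay within 50 kb of any of the 45 genes, which by the same limit of 3 counts allows a share of up to 6.67% (exact interval up to 7.87%), while 2.24% of the other genes had one.

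**Figure D1:**
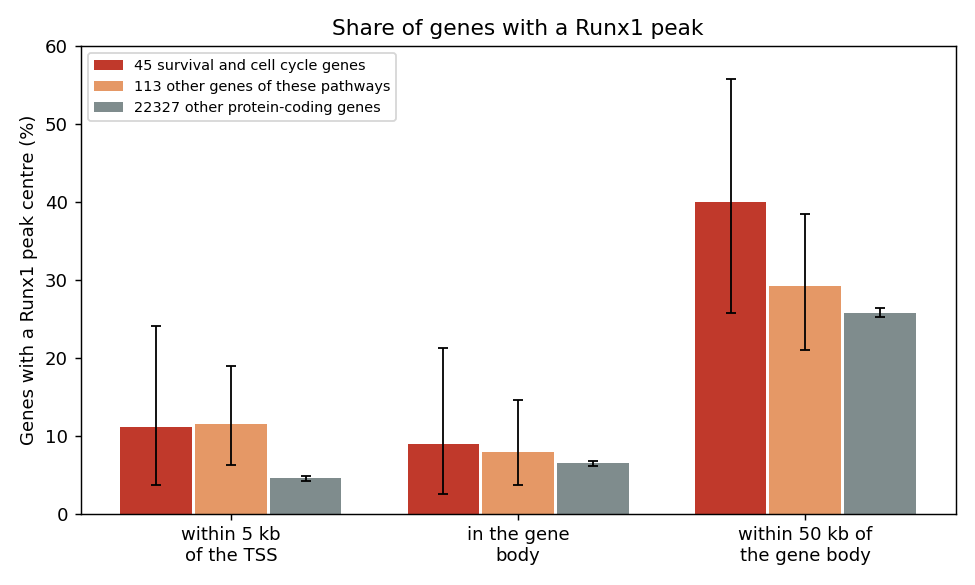
Percentage of genes with a Runx1 peak centre within 5 kb of the TSS, in the gene body, or within 50 kb of the body, for the 45 survival and cell cycle genes, 113 other genes of these pathways (which are also counted among the rest) and the 22327 other protein-coding genes. Bars are shares and error bars exact 95% intervals over genes; for the 45 genes the shares were 11.1%, 8.89% and 40.0%.

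The gene with the most peaks was Ccnd3, which encodes cyclin D3, the D-type cyclin needed for the division of immature thymocytes (chromosome 17, 47642000 to 47736632, plus strand). It held 5 peaks over 37.2 kb, with scores of 21, 73, 26, 40 and 49 from the TSS inward. The peak with a score of 21 (47641911 to 47642097) had its centre in exon 1, in the 5′ untranslated part, 4 bp downstream of the TSS. The other 4 lay in intron 1, at 3077, 16693, 26424 and 37201 bp from the TSS. The score of 73 (47644984 to 47645170) was the highest at any of the 45 genes. It had rank 21 among the 3531 Runx1 peaks, a rank shared by the 7 peaks with that score. In all, 2 of the 5 Ccnd3 peaks held TGTGGT within 100 bp of the centre, those with scores of 73 and 49, and those with scores of 21 and 26 held TGCGGT only. The peak with a score of 40 (47668331 to 47668517) held neither form. Ccnd3 was the only one of the 45 genes with 2 or more peaks within 5 kb of the TSS, as had 0.193% of the others, and it and Bcl2l1 were the 2 genes with 2 or more within 5 kb of the TSS or in the body, as had 1.04% of the others. Only 0.0179% of the other protein-coding genes, 4 in number, had 5 or more peaks within 5 kb of the TSS or in the body. These were Gm20388, Fgfr2, Ldlrad3 and Cdh23, with annotated bodies of 4430, 3010, 236 and 394 kb against 94.6 kb for Ccnd3, and their top scores were 33, 28, 35 and 18. The peaks gathered at the distal end of the gene: the shorter coding transcript starts 88416 bp downstream of the distal TSS, and the closest peak lay 51215 bp from that start.

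**Figure D2:**
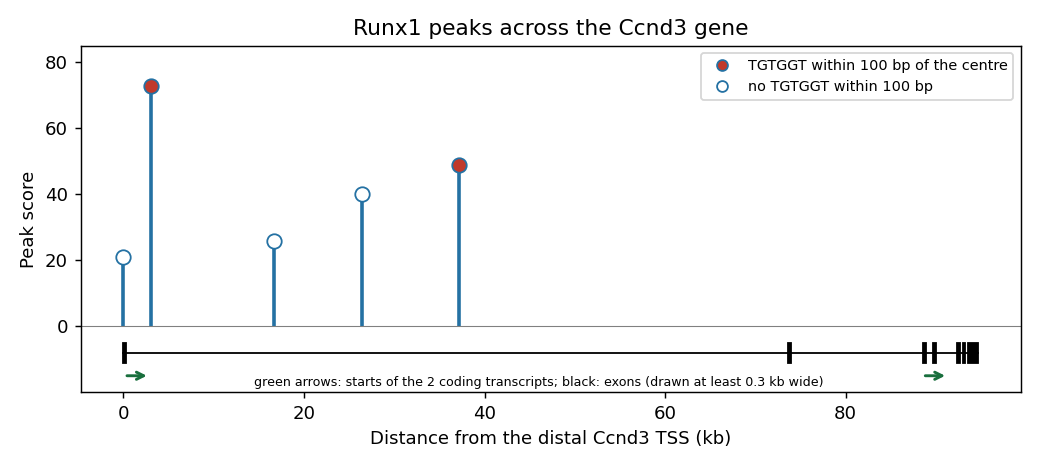
Runx1 peaks across Ccnd3, plotted as score against distance from the distal TSS in kb, with exons in black and the starts of the 2 coding transcripts as arrows. The peaks lay in the first 37.2 kb, and filled points mark the peaks with TGTGGT, which had scores of 73 and 49.

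The other D-type cyclins had no peak within 50 kb of the gene. For Ccnd1 the nearest peak centre lay 142 kb from the TSS, and for Ccnd2, which is also used by early thymocytes, 186 kb. Of their partner kinases, Cdk4 had a peak at its promoter (chromosome 10, 126500340 to 126500526, score 18), with the centre 157 bp upstream of the TSS and a TGTGGT match on the minus strand 4 bp from that centre. Cdk6, whose body is 179 kb long, had none, and its nearest peak lay 160 kb from the TSS.

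Both MYC genes had a peak within 5 kb of the TSS, as had 4.51% of the other protein-coding genes, while none of the 12 further genes of the FOXO and MYC networks had one. Myc, which drives the growth of dividing thymocytes, had its peak 1895 bp upstream of the TSS (chromosome 15, 61814958 to 61815144), and Mycn, a MYC protein found mostly in embryonic and precursor cells, had one 492 bp upstream (chromosome 12, 12949119 to 12949305). Each peak had a score of 18, the median of the list, with 43.2% of all peaks scored lower. Neither gene held a peak in its body, and neither had a further peak within 50 kb.

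Ccnt2 encodes a cyclin T, a subunit of the P-TEFb kinase that releases paused RNA polymerase II. Its promoter peak (chromosome 1, 129670432 to 129670618) had a score of 30, above that of 86.0% of all peaks, and lay 216 bp before the TSS, by its centre. A further peak (score 23) lay 22328 bp beyond the 3′ end of Ccnt2, inside the neighbouring gene Ysk4, and held 2 TGTGGT matches. For the cyclins of later phases, Ccna2, Ccne1, Ccne2 and Ccnb1, the nearest peak centre was at 96.0, 108, 294 and 728 kb from the TSS. For Cdk1, the kinase of mitosis, it was at 944 kb. Cdk2 had 3 peaks upstream of the gene, at 11164, 41383 and 43690 bp from the TSS, with scores of 21, 28 and 18. The TSS nearest to them was that of Pmel for the closest peak and that of Wibg for the other two, and the closest peak held 3 TGTGGT matches.

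E2f2, an E2F factor that restrains T-cell proliferation, had 1 peak in intron 1. Its centre lay 5437 bp into the gene and 2975 bp from another annotated start of the gene. With a score of 49 it had rank 102 of the 3531 peaks, a rank shared by the 17 peaks with that score. E2f1, the best known activator of S-phase genes, had only a peak with a score of 16, at 15688 bp upstream. Rbl2 and Rb1, the pocket proteins that E2F factors bind, had no peak nearer than 116 and 209 kb. Among the CDK inhibitors, Cdkn1a (p21) had a peak 34036 bp upstream and Cdkn2d (p19) had peaks 29862 bp upstream and 49005 bp downstream of the TSS, all with a score of 16. The TSS nearest to the Cdkn1a peak was that of Srsf3. For the Cdkn2d peaks it was that of Ap1m2 for the upstream one and of Keap1 for the downstream one. Cdkn1b (p27) and Cdkn2c (p18) had no peak within 50 kb, their nearest peaks being at 298 and 239 kb. The stress-induced Gadd45a and Gadd45b had none either, with distances of 673 and 132 kb.

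**Figure D3:**
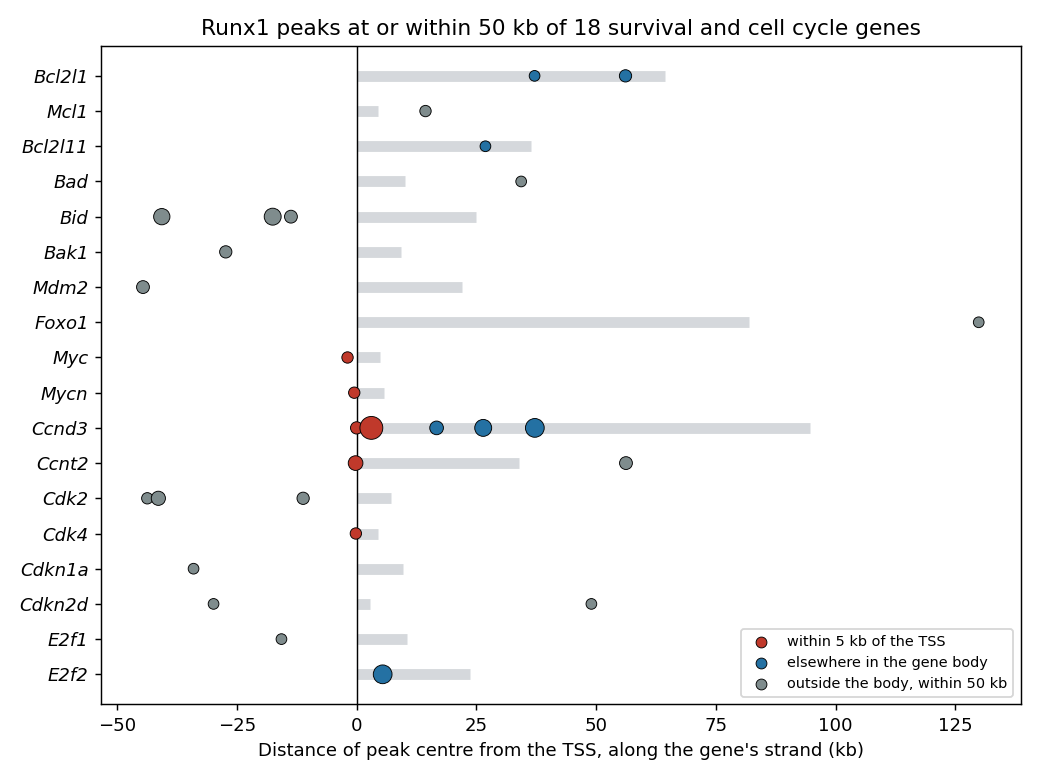
Position of the 29 Runx1 peaks at or within 50 kb of 18 survival and cell cycle genes, in kb from each TSS along the strand of the gene; grey bars are gene bodies, drawn from the TSS, and the area of a point is proportional to its score. Peaks within 5 kb of a TSS were seen at Ccnd3, Ccnt2, Cdk4, Myc and Mycn, and the largest point is the Ccnd3 peak with a score of 73.

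On the survival side, the anti-apoptotic genes differed among themselves. Bcl2l1, which encodes Bcl-xL, the main survival protein of DP cells, had 2 peaks in intron 2, at 37147 and 56127 bp from the TSS. The nearer one (chromosome 2, 152620178 to 152620364, score 16) held neither form of the RUNX motif, and the farther one (152601198 to 152601384, score 21) held the pair of TGTGGT matches printed above. The TSS nearest to the farther peak was that of Cox4i2, at 21382 bp. Mcl1 had a peak with a score of 18, at 9922 bp beyond its 3′ end. Bcl2, which is low in DP cells and high in mature T cells, had none within 50 kb of its 176 kb body, and the nearest was 647 kb from its TSS.

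Of the 5 BH3-only genes, which encode the sensors that set off apoptosis, 3 had a peak within 50 kb, as had 25.8% of the other protein-coding genes. Bcl2l11, which encodes Bim, the mediator of thymocyte deletion by strong receptor signals, had a peak in intron 3, at 26888 bp from the TSS (chromosome 2, 127978570 to 127978756). Its score of 16 was the second lowest value in the list and held by 1508 of the 3531 peaks. Bid had 3 peaks upstream of its TSS, at 13708, 17517 and 40666 bp, with scores of 23, 40 and 37. All 3 held TGTGGT, and although the last 2 lay inside Mical3, the TSS of Bid was the nearest to each. In all, 6 of the 45 genes had 2 or more peaks within 50 kb of the body (13.3%, against 6.27% of the others). Only 1.49% of the other protein-coding genes had 3 or more peaks within 50 kb of the body, as did Bid, Cdk2 and Ccnd3. Bad had a peak of score 16 at 24313 bp from the body, whose nearest TSS was that of Ppp1r14b. The p53 targets Bbc3 (Puma) and Pmaip1 (Noxa) had none within 50 kb, with distances of 438 and 175 kb.

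The pore-forming Bak1 had a peak with a score of 21 at 27313 bp upstream, 982 bp from the TSS of Itpr3, while Bax had its nearest peak at 71.0 kb. None of the 4 genes of the death receptor pathway had a peak within 50 kb, where 25.8% of the other protein-coding genes had one, and so few genes cannot be set apart from that share. The distances were 849 kb for the receptor Fas, 608 kb for its ligand Fasl, 161 kb for the initiator Casp8 and 245 kb for its inhibitor Cflar. The same held for the 3 genes of the apoptosome pathway, with Casp9 at 261 kb, the caspase inhibitor Xiap at 276 kb and Apaf1 at 1100 kb, the farthest of the 45 genes. Trp53, which encodes p53, lay 157 kb from the nearest peak, and its ligase Mdm2 had a peak with a score of 23 at 44590 bp upstream, in Nup107. The TSS nearest to that peak was that of Slc35e3, at 8990 bp. Foxo1, which sustains resting T cells, had a peak with a score of 16 at 48079 bp beyond its 3′ end, and Foxo3 had none nearer than 422 kb.

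Altogether, 29 peaks lay within 50 kb of one of the 45 genes, and none was counted for more than 1 of these genes. Of these, 13 were within 5 kb of the TSS or in the body of 8 genes, 17.8% of the 45 as compared with 8.82% of the other protein-coding genes. For 12 of the 13 the gene's own TSS was the nearest one. Of the 16 more distant peaks, 6 had the TSS of the listed gene as their nearest TSS and 10 that of another gene. The 13 peaks had a median score of 21, from 16 to 73, against a median of 18 for all 3531. Without the 5 peaks of Ccnd3, the median of the remaining 8 was 18. Scores of at least 23, the upper quartile of the list, were reached by 6 of the 13 and, with ties, by 1023 of the 3531. Without Ccnd3 they were reached by 2 of 8. Scores take few values, with 35 distinct ones in the list, so that most peaks can be ranked only coarsely.

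**Figure D4:**
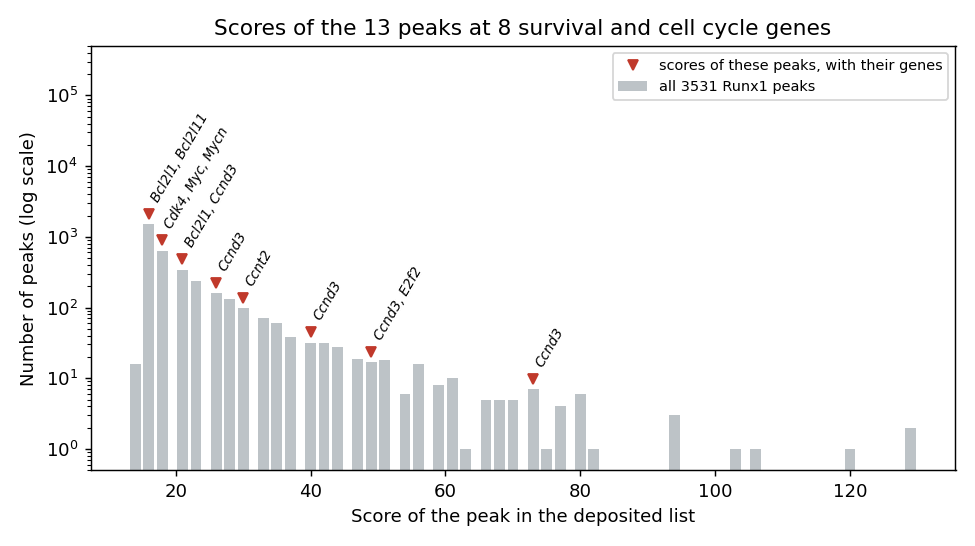
Number of Runx1 peaks at each score of the deposited list, on a log scale, with triangles at the scores of the 13 peaks within 5 kb of the TSS or in the body of 8 survival and cell cycle genes. Ccnd3 peaks had scores from 21 to 73, and those of Myc, Mycn and Cdk4 sat at 18.

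With both strands searched 100 bp to each side of the centre, 8 of the 13 peaks held TGTGGT, or 61.5%, as compared with 26.5% of all Runx1 peaks and 25.9% of the 868 Runx1 peaks within 5 kb of a protein-coding TSS. At positions 1 kb to either side of the same 13 centres, in chromosome coordinates, it was found once on each side. In regions of the same 201 bp, it was present at 10.0% of protein-coding TSSs and at 14.6% of the positions 1 kb away from all Runx1 peaks. Counting TGCGGT as well gave 11 of 13 peaks, against 33.6% of all Runx1 peaks and 15.4% of TSSs. A peak with TGTGGT lay within 5 kb of the TSS or in the body of 7 of the 45 genes (15.6%), all of the 8 with a peak there but Mycn, against 2.64% of the other protein-coding genes. Among the 29 peaks within 50 kb, 14 held it, or 48.3%. These shares rest on few peaks and were given no test, and a match is not evidence of binding at that base.

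The distance from the TSS to the nearest Runx1 peak centre, in either direction, had a median of 132 kb over the 45 genes and of 182 kb over 22314 other protein-coding genes on chromosomes with a peak. It was 112 kb for the 24 cell cycle genes and 161 kb for the 21 survival and death genes. Within 20 kb, a peak was found for 8 cell cycle genes (33.3%) and 2 survival and death genes (9.52%), against 10.5% of the others. At 100 kb the groups were alike in share, 45.8 and 42.9%, against 34.5%. The 27 genes with no peak within 50 kb of the body ranged from 71.0 to 1100 kb, with a median of 245 kb. Gene length bears on counts in the body, and the median body was 11.5 kb long for the 45 genes and 15.4 kb for the others. Among genes longer than 29.3 kb, a body peak was found for 3 of 15 of the listed genes and for 12.8% of the others; from 7.43 to 29.3 kb the values were 1 of 17 and 5.23%, and below 7.43 kb, 0 of 13 and 1.45%. Genes were not matched on expression in DP cells, which is not analysed here, and the depth of the libraries is unknown, so a missing peak says only that none was called.

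**Figure D5:**
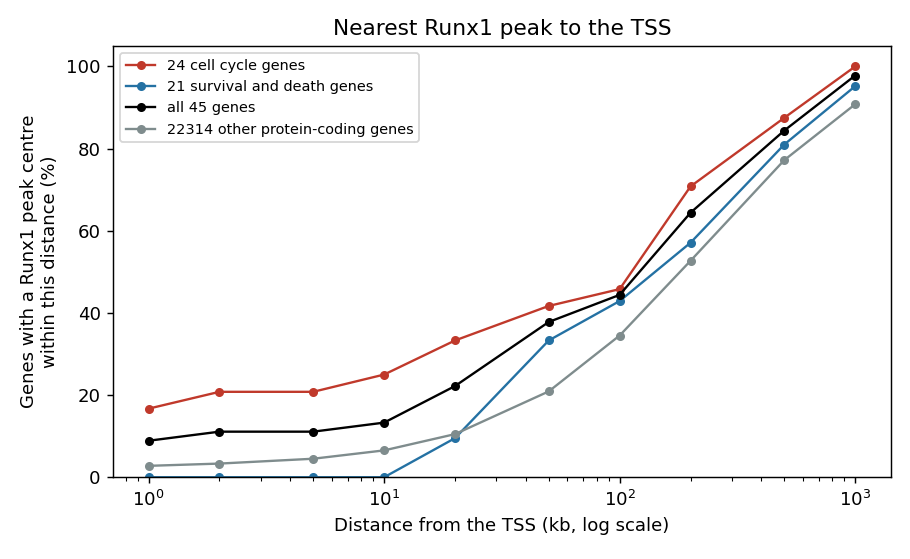
Percentage of genes with a Runx1 peak centre within a given distance of the TSS, in kb on a log scale, for the 24 cell cycle genes, the 21 survival and death genes, all 45 and the other protein-coding genes. At 20 kb the curves stand at 33.3%, 9.52%, 22.2% and 10.5%.

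A list of 113 further genes of the same pathways was looked up in the same way. A peak lay within 5 kb of the TSS for 13 of them, or 11.5% (6.27 to 18.9%), against the 4.51% of all genes outside the 45. In the gene body there were 9, or 7.96%, against 6.48%, and within 50 kb 33, or 29.2%, against 25.8%. Peaks near the TSS were not confined to the cell cycle side here. They were found at 1 of 10 BCL-2 family genes, 2 of 16 genes of caspases and their inhibitors, 2 of 10 death receptor genes and 2 of 13 p53 pathway genes. For the cell cycle they were found at 1 of 12 cyclins, 2 of 13 CDKs and inhibitors, 1 of 13 E2F, RB and GADD45 genes and 2 of 14 genes of mitosis and checkpoint. In the apoptosis part, the highest scores within 5 kb of the TSS were at Traf2, an adaptor of TNF receptors (score 30, 2334 bp upstream), and Tnf itself, with scores of 28 at 1350 bp downstream and 23 at 2721 bp upstream, the latter nearer to the TSS of Lta. The BH3-only gene Hrk had a peak with a score of 23 in intron 1, 2586 bp downstream. Casp2 had one of score 18 at 171 bp upstream, and Diablo, whose product blocks caspase inhibitors, one of score 16 at 1240 bp upstream. In the p53 part, peaks of score 16 lay 41 bp downstream of the TSS of the damage kinase Atm and 234 bp downstream of that of Ccng2. In the cell cycle part, the highest score within 5 kb was 23, at Ccni, 288 bp upstream and nearer to the TSS of 2010109A12Rik. Peaks of score 16 were found at Cdk5 (190 bp upstream), Cdk17 (55 bp upstream), E2f4 (1314 bp downstream), the mitotic kinase Plk1 (778 bp downstream) and Skp2, which marks p27 for destruction (7 bp upstream). The top score was 18 or less at 9 of these 13 genes, and at 3 of the 5 listed genes with a peak within 5 kb of the TSS (Cdk4, Myc and Mycn), while 61.3% of all Runx1 peaks scored below 21, that is 18 or less.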

How the data were processed

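The Runx1 ChIP and the input of DP thymocytes gave 1 library each. For each library the authors deposited peak positions on mm9 with a score per peak, which neither list explains. The submitters' processing notes name HOMER and mm9; the aligner is not given in the sources used here, nor the settings behind the input list. No read counts entered the analysis, so depth is unknown and intervals cover counting over genes only.

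Starts were converted to 1-based positions. All peaks on each of the 21 chromosomes with Runx1 peaks ended within the NCBIM37 chromosome. Genes were the protein-coding genes of GENCODE M1; the TSS was that of the longest protein-coding transcript. A peak was placed by its centre: within 5 kb of the TSS, in the gene body, or within 50 kb of the body. Motifs were searched on both strands within 100 bp of the centre, and 1 kb to each side. Every gene with a peak near the TSS or in the body is described; the other pathway genes are named where a peak lay within 5 kb of the TSS. The genes and lists were chosen with earlier results of these data known, so shares were set beside those of all other genes and no test was run. FPKM values were not used here, and the sequences of 5 of the 13 peaks are not reported here. Counting was tested on simulated data. The tools were pysam 0.24.0, pandas 2.3.3, scipy 1.17.1, numpy 2.4.6 and matplotlib 3.10.9 under Python 3.11.15. The alternatives tried were the TSS window and TSS choice, the distance from the body, overlap in place of centre, minimum scores, input overlap and the motif.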

Additional observations from a re-analysis of the deposited data

How the results depend on the processing

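With the 1023 peaks in the upper quartile of scores (at least 23), a peak lay within 5 kb of the TSS for 2 of the 45 genes (1.16% of the others), in the body for 2 (1.8%) and within 50 kb for 6 (7.87%), with fewer peaks counted; Ccnd3, Ccnt2 and E2f2 still had one near the TSS or in the body. With only the peaks that hold TGTGGT, an alternative chosen after seeing the data, 9 genes had a peak within 50 kb (8.41% of the others). The longer motif TGTGGTT was found at 3 of the 13 peaks, against 13.0% of all peaks. The other settings changed these counts by no more than 1.5 times: from 4 to 6 genes near the TSS with windows of 1 to 10 kb (2.78 to 6.53% of the others) or other annotated starts (E2f2 was added at 10 kb and with any annotated start, and Myc was lost at 1 kb), and 12 genes at 20 kb from the body (15.8% of the others) and 22 at 100 kb (38.5%). Where the listed gene had to have the nearest TSS, 12 genes kept a peak, against 10.2% of the others. With a minimum score at the median of 18, 3 genes kept a peak in the body, against 3.59% of the others. At that cut Bcl2l11 lost its only peak and Bcl2l1 kept 1 of 2. The 35 peaks that overlap an input peak touched none of the 45 genes. No paired analysis was possible because there was 1 library per condition, and for the same reason no replicate could be left out. Scores are tied for 1508 peaks at 16, and read depth is unknown, which limits any ranking of the weaker peaks.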

Other observations

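Other short motifs were counted within 100 bp of the centres of the 13 peaks near the TSS or in the body of the 45 genes, after their sequences had been seen. The E-box CACGTG, the site of MYC and related factors, was present in 3 peaks, those of Cdk4, Bcl2l11 and Bcl2l1 (the one with a score of 21). It was found at 4.33% of all Runx1 peaks and at 5.51% of the windows of the same width around protein-coding TSSs. The Cdk4 peak held 3 copies. The sequence AGGAAGT, a form of the site of ETS factors, was present in 3 peaks, the Ccnd3 peaks with scores of 21 and 73 and the same Bcl2l1 peak, and in 11.7% of all Runx1 peaks. All 3 also held TGTGGT or TGCGGT, a combination found in 4.7% of all Runx1 peaks. In the Ccnd3 peak with a score of 73, the printed sequence shows it just after the RUNX match. These matches were picked by eye and were given no test.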
